A study of Mus musculus with 4 samples.

Results

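The 40 genes described here carry glucose and related sugars into and out of kidney cells, break glucose down to pyruvate and lactate, rebuild glucose from smaller molecules, and oxidise pyruvate in mitochondria. They were chosen by name, and every non-control probe whose RefSeq accession belongs to 1 of them was taken. This gave 50 probes of the 55668 analysed, and at least 1 probe for each of the 40 genes. With the brightest probe standing for each gene, the 40 genes are 40 of the 24044 features compared. Total RNA was taken from mouse kidney 2 weeks after bile duct ligation (BDL), a surgical model of cholestasis in which bile can no longer drain from the liver, or 2 weeks after a sham operation. There were 2 BDL samples and 2 sham samples, called biological replicates by the series' design text, and each was hybridised alone to an Agilent array with the dye Cy3. Strain, sex, age and feeding state are not given in the sources used here, and no group carries a named genetic change. The series' title concerns renal drug handling in cholestasis and names no question about glucose.

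As background, the kidney both makes and uses glucose, in different stretches of the nephron. Cells of the proximal tubule recover filtered glucose with sodium-coupled carriers on their luminal side, pass it to the blood through a facilitative carrier, and build new glucose from lactate, glutamine and glycerol. They burn fatty acids and organic acids in the tricarboxylic acid (TCA) cycle and run little glycolysis. Cells of the thick ascending limb and collecting duct have the hexokinases, phosphofructokinases and pyruvate kinase that push glucose down to pyruvate. Glycolysis and gluconeogenesis share the reversible middle steps and part ways at the steps that run in only 1 direction, so the enzymes of those steps mark the route.

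Between 57.7% and 63.1% of the spots on an array were well above background, and none was saturated. Across features the arrays correlated with Pearson's r of 0.974 to 0.985. Both ends of this range were pairs from opposite groups, the replicates 1 (0.974) and the replicates 2 (0.985). Within groups r was 0.983 for BDL and 0.979 for sham kidneys. All 50 probes of the 40 genes were well above background on all 4 arrays. The tissue label was checked against marker genes: all 25 listed markers of proximal tubule, thick ascending limb, distal convoluted tubule and principal cells and all 5 of intercalated cells were well above background on all 4 arrays. BDL replicate 1 stood apart in urothelial and adipocyte markers. Its 5 urothelial markers summed to 54.3 multiples of the array's 75th percentile signal, against 1.22 in BDL replicate 2 and 2.61 and 8.03 in the sham kidneys. The 2 adipocyte markers retained of 5 summed to 89.5 and 14.1 in the BDL kidneys, against 11.7 and 29.5 in the sham kidneys. Sham replicate 2 had the highest sums of thick ascending limb markers (403 and 259 in the BDL kidneys, 279 and 494 in the sham kidneys) and of principal cell markers (56.5 and 60.6 in the BDL kidneys, 45.1 and 98.8 in the sham kidneys). A sum mostly follows its brightest marker, here Umod for the thick ascending limb and Fabp4 for adipocytes. The median log2 deviation of the 5 thick ascending limb markers was -0.24 and -0.30 in BDL kidneys, against -0.32 and 0.52 in sham kidneys. All 5 proximal tubule S3 markers were detected, and their sum was 105 and 158 in the BDL kidneys, against 316 and 286 in the sham kidneys. The brightest S3 marker in the sham kidneys was Slc22a7, with a log2 difference between the group means (BDL minus sham) of -1.86. That of Cyp7b1 was -1.89, while Slc22a13 was at -0.54, Slc7a13 at -0.43 and Aadat at 0.31.

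Levels below are log2 signals relative to the array's own 75th percentile, and a difference is the BDL mean minus the sham mean on that log2 scale, with its standard error (SE) from limma and 2 kidneys in each group. None of the 40 genes differed between BDL and sham kidneys at an adjusted p of 0.05, and none of the 24044 features did (0% called by limma, smallest adjusted p = 0.198). Without adjustment, limma's p was under 0.05 for 3 of the 40 genes, beside 5.62% of all features: Fbp2 and Hk2 were higher in BDL kidneys (2.59% of all features) and Slc5a10 was lower (3.04% of all features). The genes at least 2-fold apart were Fbp2 and Hk2, both higher in BDL kidneys. Of all features, 2.00% passed 2-fold upward and 2.65% downward. By group means 12 of the 40 genes were higher in BDL kidneys (48.6% of all features) and 28 were lower (51.4% of all features). The 2 BDL values exceeded both sham values in 5 genes (17.4% of all features) and were under both in 9 genes (19.3% of all features), and the groups overlapped in the other 26, while 36.6% of all features had no overlap. The median difference of the 40 genes was -0.05, and that of all features was -0.01. For 28 of the 40 genes the 95% interval of the difference lay wholly within 2-fold either way, as it did for 59.9% of all features. The p-values rest only on the spread between these 4 samples. For each gene, limma draws that spread toward the spread of all features. The SE, interval and p of a gene therefore do not reflect its own spread alone. Cs, for example, had standard deviations of 0.02 in BDL and 0.04 in sham kidneys, and an SE of 0.19.

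**Figure D1:**
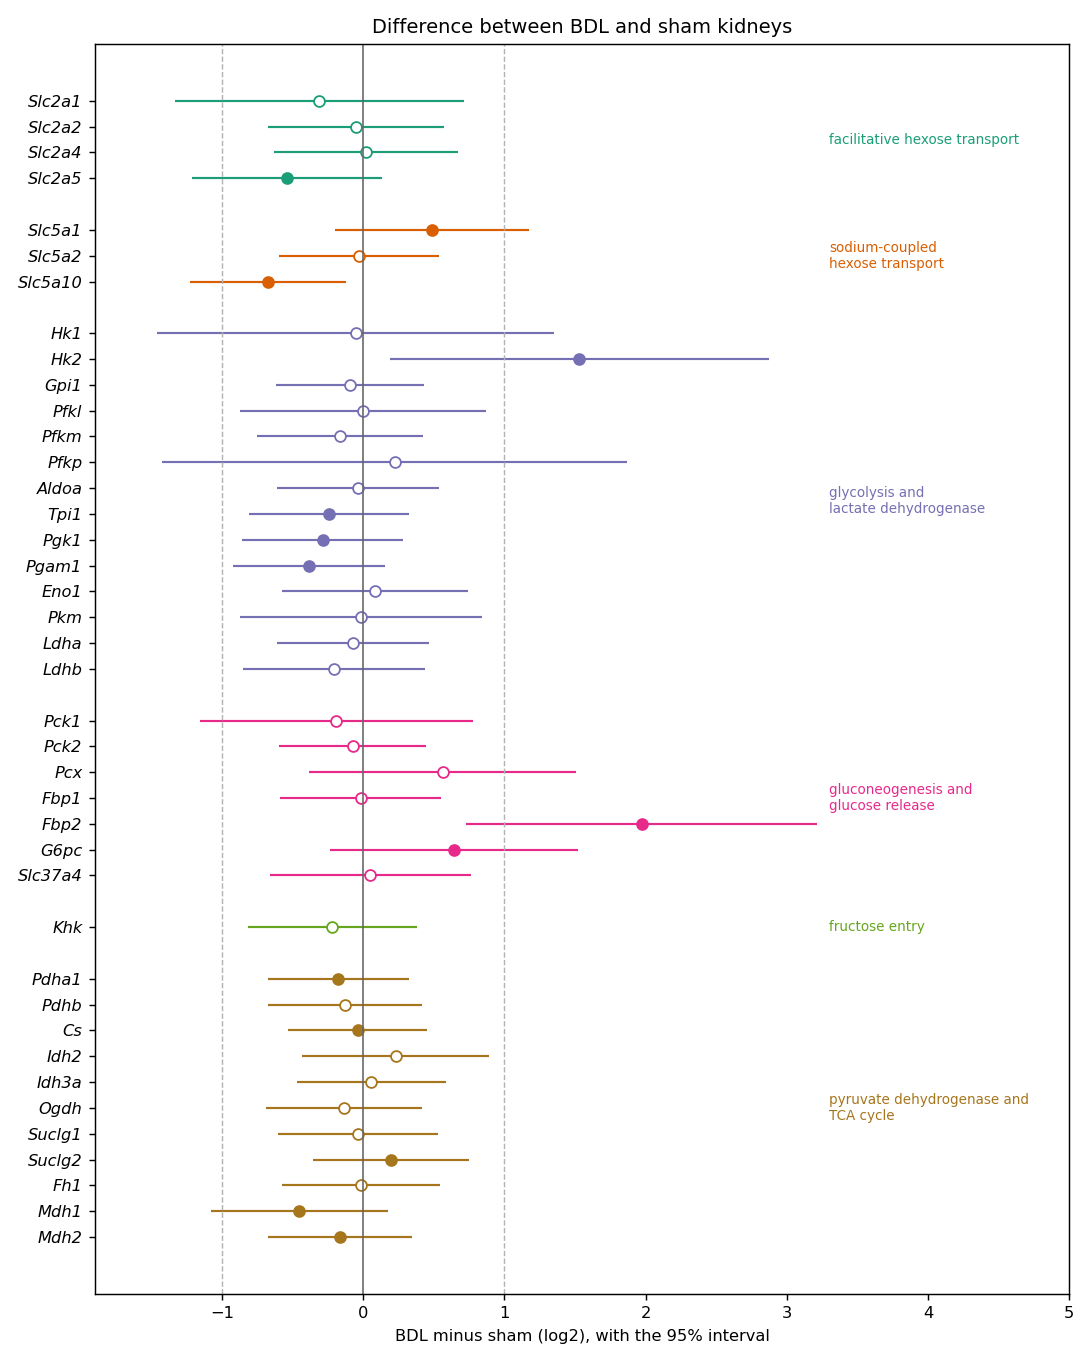
The difference between BDL and sham kidneys (horizontal axis, log2, BDL minus sham) is shown for each of the 40 genes with its 95% interval from limma, in 6 coloured routes, with filled points where the 2 BDL and 2 sham values did not overlap and dashed lines at 2-fold. Fbp2 (1.97) and Hk2 (1.53) lie farthest to the right, Slc5a10 (-0.68) lies farthest to the left, and 10 of the 11 intervals of the pyruvate dehydrogenase and TCA genes stay between the dashed lines.

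Among the sodium-coupled carriers, the main glucose transporter was level and 2 minor ones stood on opposite sides. Slc5a2 encodes SGLT2, which recovers most filtered glucose in the early proximal tubule, and its levels were 6.86 and 6.81 in BDL kidneys, against 7.03 and 6.70 in sham kidneys. The BDL values lay between the sham values, and the difference was -0.03 ± 0.21 (SE), with a 95% interval of -0.60 to 0.54. Slc5a1 encodes SGLT1, the high-affinity carrier that takes up what SGLT2 leaves, and its levels were 0.09 and 0.48 in BDL kidneys, against -0.39 and -0.01 in sham kidneys. Both BDL kidneys were above both sham kidneys, by 0.48 ± 0.26 or 1.40-fold (limma adjusted p = 0.872), and by 0.29 without BDL replicate 2 or without sham replicate 1. Slc5a10 encodes SGLT5, a carrier of mannose and fructose found mainly in kidney, and its levels were 5.59 and 5.79 in BDL kidneys, against 6.47 and 6.27 in sham kidneys. Neither BDL kidney reached the lower sham value, and the difference of -0.68 ± 0.21 was a 1.60-fold lower level with a 95% interval of -1.23 to -0.12 (limma adjusted p = 0.861).

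Of the 4 facilitative carriers, the fructose carrier was the one whose groups did not overlap. Slc2a5 encodes GLUT5, a fructose transporter of the brush border, and its levels were 5.02 and 5.43 in BDL kidneys, against 5.93 and 5.60 in sham kidneys. The BDL levels were both under the sham levels, by 1.45-fold (-0.54 ± 0.25, limma adjusted p = 0.872), and the difference was -0.33 without BDL replicate 1. The sums of proximal tubule S3 markers were also lower in both BDL kidneys, with 4 of the 5 markers lower by group means and a median difference of -0.54. This was not particular to S3 markers. By group means all 5 thick ascending limb markers were lower (median difference -0.49), and all 5 intercalated cell markers were higher (0.64). In whole kidney RNA, fewer cells of a type and less RNA per cell cannot be told apart, and the part of S3 cells in the Slc5a10 and Slc2a5 values was not tested.

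Slc2a2 encodes GLUT2, the basolateral exit for reabsorbed and newly made glucose in the proximal tubule. Its levels were 3.71 and 3.81 in BDL kidneys, against 4.03 and 3.60 in sham kidneys, and the BDL values fell between the sham values (-0.05 ± 0.23). Slc2a1 encodes GLUT1, the carrier of the more glycolytic later segments, with levels of 3.21 and 3.60 in BDL kidneys, against 3.24 and 4.19 in sham kidneys. Its difference of -0.31 ± 0.39 was smaller than the gap of 0.95 between the sham kidneys, and it was 0.16 without sham replicate 2. Slc2a4, the insulin-responsive carrier of muscle and fat, had levels of 3.56 and 3.46 in BDL kidneys and 3.25 and 3.73 in sham kidneys, a difference of 0.02 ± 0.25.

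The sugar phosphatase Fbp2 had the largest difference of the 40 genes. Fructose-1,6-bisphosphatase removes a phosphate from fructose bisphosphate and so reverses the phosphofructokinase step. Fbp1 is the form of liver and kidney, and Fbp2 is the form first known from muscle. Fbp2 levels were 0.95 and 0.81 in BDL kidneys, against -1.74 and -0.44 in sham kidneys. Both BDL kidneys were above both sham kidneys and close to each other, while the sham kidneys were 1.30 apart. The difference was 1.97 ± 0.47, a 3.92-fold higher level with a 95% interval of 1.65-fold to 9.29-fold (limma adjusted p = 0.761). Leaving out sham replicate 1 gave 1.32 and leaving out sham replicate 2 gave 2.62. Fbp1 levels were 8.79 and 8.76 in BDL kidneys, against 8.96 and 8.63 in sham kidneys, so that the BDL values lay between the sham values (-0.02 ± 0.22). Skeletal muscle was looked for with Acta1, Ckm, Myh4, Mylpf and Tnnt3, and none of the 5 was retained as well above background in a group. On single arrays, 1 of the 5 was well above background in BDL replicate 1 and 1 in sham replicate 2, and none in the other kidneys. The part of muscle in the Fbp2 value was not tested.

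Fbp2 and Fbp1 are neighbours on the minus strand of chromosome 13, and the 250 bases before each gene's start, from RefSeq on GRCm38.p6, are shown because the 2 genes encode the same activity. The sequences are read 5′ to 3′ along the gene, with motif matches in capitals. Motifs were searched on both strands. ACGTG is the core bound by hypoxia-inducible factors. The E-box searched was CACGTG, which contains that core. TGACG is a half-site of the cAMP response element, and TGTTTAC is bound by FOXO factors. The remaining motifs were TATAAA, the box near many start sites, and GGGCGG, a site of Sp factors. The Fbp2 stretch, chr13:62858401-62858650, held CACGTG from 42 to 37 bases before the start and TGACG on the opposite strand (written CGTCA here) from 97 to 93 bases before it. The Fbp1 stretch, chr13:62888283-62888532, held 1 match, GGGCGG from 84 to 79 bases before the start.
Fbp2: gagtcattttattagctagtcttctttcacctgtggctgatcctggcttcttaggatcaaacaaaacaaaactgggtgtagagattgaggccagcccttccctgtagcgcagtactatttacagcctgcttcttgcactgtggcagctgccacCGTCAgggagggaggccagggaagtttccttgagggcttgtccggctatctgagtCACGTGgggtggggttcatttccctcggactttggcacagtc
Fbp1: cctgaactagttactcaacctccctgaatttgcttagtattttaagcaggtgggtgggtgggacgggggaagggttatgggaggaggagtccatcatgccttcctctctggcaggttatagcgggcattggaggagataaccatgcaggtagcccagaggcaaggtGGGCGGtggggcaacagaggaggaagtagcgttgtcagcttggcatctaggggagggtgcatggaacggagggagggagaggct
Of 32536 mouse promoter stretches of this length, 6.04% held CACGTG, 17.9% held TGACG and 33.0% held GGGCGG. A match describes the letters and is not a site shown to be bound.

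G6pc encodes the catalytic subunit of glucose-6-phosphatase, which releases free glucose at the end of gluconeogenesis. Its levels were 6.71 and 7.22 in BDL kidneys, against 6.65 and 5.99 in sham kidneys. The BDL levels exceeded both sham levels, although BDL replicate 1 and sham replicate 1 were nearly equal. The difference was 0.64 ± 0.33, or 1.56-fold (limma adjusted p = 0.872), and it was 0.31 without sham replicate 2. The 250 bases before the G6pc start on the plus strand, chr11:101367466-101367715, are shown as those of the other glucose-making gene whose groups did not overlap. They held TATAAA from 29 to 24 bases before the start, a match found in 12.3% of the promoter stretches.
G6pc: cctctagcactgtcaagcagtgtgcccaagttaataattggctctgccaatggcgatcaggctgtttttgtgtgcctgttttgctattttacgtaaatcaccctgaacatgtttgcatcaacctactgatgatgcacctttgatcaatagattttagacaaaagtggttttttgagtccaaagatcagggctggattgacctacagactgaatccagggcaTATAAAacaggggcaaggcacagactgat
Of the 37 genes with a stretch in the RefSeq table, counting any of a gene's listed starts, 15 held ACGTG (16.7% of all stretches), 7 held CACGTG, 9 held TGACG, 2 held TATAAA, 25 held GGGCGG and none held TGTTTAC (3.17% of all stretches). A gene with several starts has more chances of a match, so these counts of genes and the shares of single stretches are unlike measures. Slc5a2, Idh3a and Slc2a4 had no entry.

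The other 5 genes of glucose formation overlapped between the groups. Pck1 encodes the cytosolic phosphoenolpyruvate carboxykinase, the step most often used to gauge gluconeogenesis, and its levels were 6.78 and 7.64 in BDL kidneys, against 7.60 and 7.20 in sham kidneys. The BDL kidneys held both the lowest and the highest value, and the difference of -0.19 ± 0.36 was 0.24 without BDL replicate 1. Pcx, pyruvate carboxylase, which makes oxaloacetate from pyruvate, had levels of 7.35 and 6.95 in BDL kidneys, against 7.00 and 6.17 in sham kidneys. Its groups overlapped by the narrow margin between BDL replicate 2 and sham replicate 1, and the difference was 0.56 ± 0.36, or 0.15 without sham replicate 2. Slc37a4, the carrier that brings glucose-6-phosphate to G6pc in the endoplasmic reticulum, had levels of 6.33 and 6.45 in BDL kidneys, against 6.63 and 6.05 in sham kidneys (0.05 ± 0.27). Pck2, the mitochondrial carboxykinase, had levels of -3.23 and -3.41 in BDL kidneys and -3.20 and -3.29 in sham kidneys (-0.07 ± 0.20). These were the lowest levels of the 7 genes. The lowest signals well above background ran from -5.33 to -4.74 over the arrays, so the Pck2 difference rests on weak signals. Across the 7 genes of glucose formation, 4 were higher and 3 lower in BDL kidneys, with a median difference of 0.05. Sham replicate 2 was the lowest array in 4 of the 7 genes, beside 25.4% of all features.

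**Figure D2:**
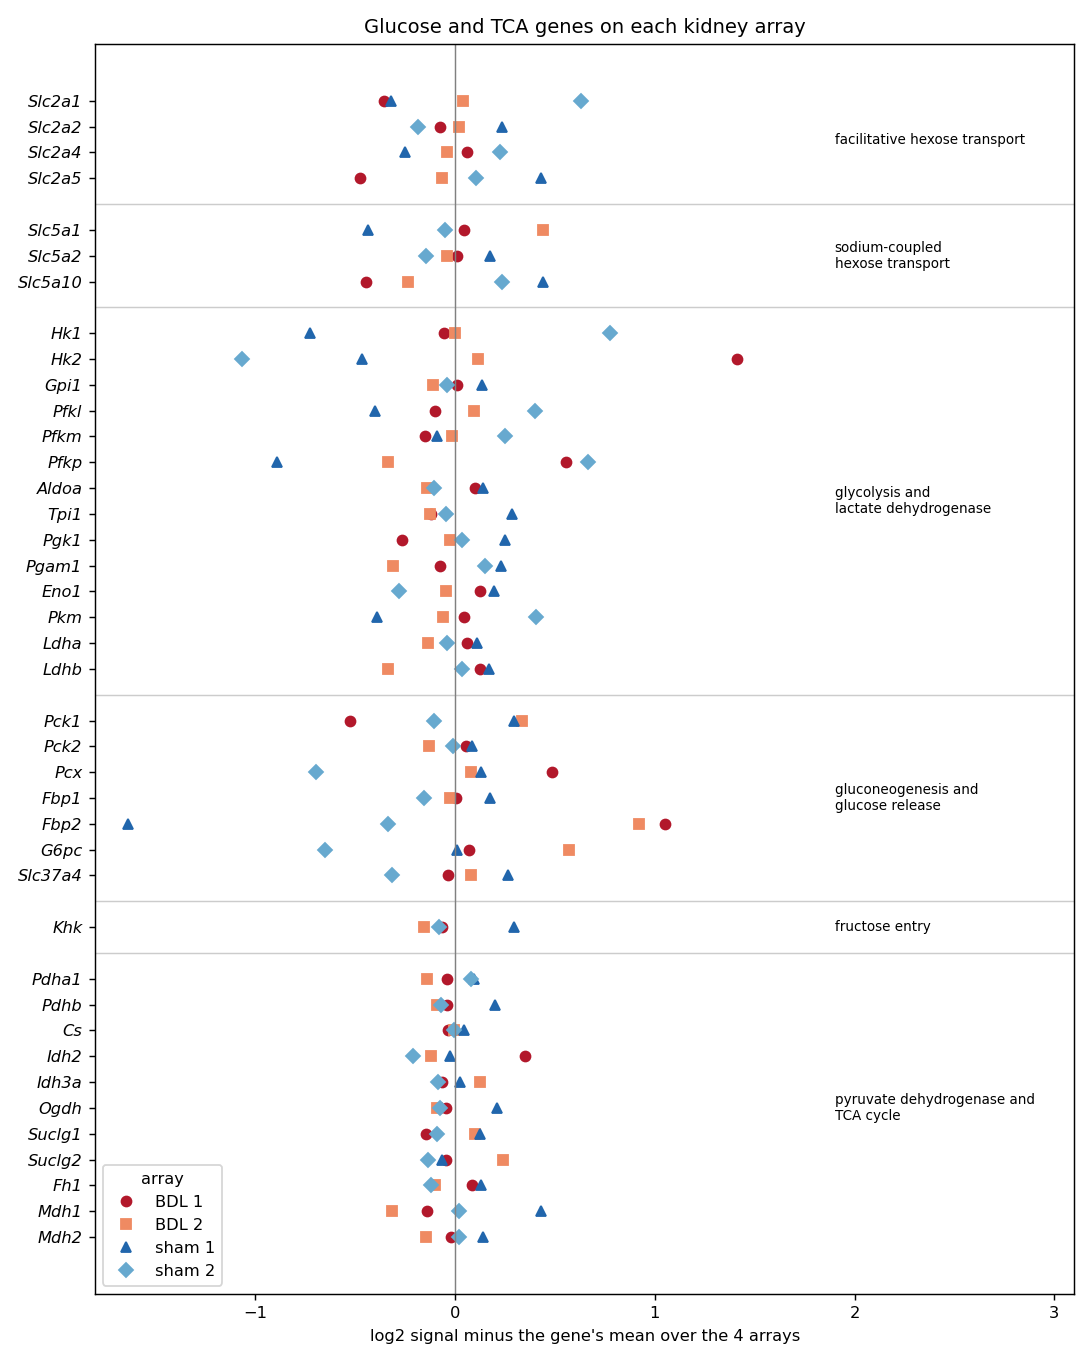
Each gene's log2 signal on each of the 4 arrays is plotted as the deviation from that gene's own mean over the arrays (horizontal axis, log2), with BDL kidneys in red and orange, sham kidneys in dark and light blue, and horizontal lines between the 6 routes. Both BDL points lie right of both sham points for Slc5a1, Hk2, Fbp2, G6pc and Suclg2, and sham replicate 1 is the rightmost point for 24 of the 40 genes.

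Hexokinase traps glucose in the cell, and its 2 measured forms behaved differently. Hk2, an inducible form that binds mitochondria, had levels of -1.88 and -3.18 in BDL kidneys, against -3.76 and -4.36 in sham kidneys. The lowest signals well above background were -4.74 in sham replicate 1 and -5.19 in sham replicate 2. The Hk2 sham values lay near these, so its fold rests on weak signals. Both BDL kidneys were above both sham kidneys, with BDL replicate 1 the highest of all. The difference was 1.53 ± 0.51, a 2.89-fold higher level with a 95% interval of 1.14-fold to 7.31-fold (limma adjusted p = 0.863). It was 0.88 without BDL replicate 1, the kidney with the high urothelial and adipocyte sums, and 0.77 under the normexp background correction. The part of those cell types in the Hk2 value was not tested. Hk1, the broadly expressed form, had levels of 4.99 and 5.05 in BDL kidneys, against 4.32 and 5.82 in sham kidneys. The BDL kidneys were nearly equal and lay between sham kidneys that were 1.50 apart, so the difference of -0.05 ± 0.53 had a 95% interval of -1.46 to 1.35. A second Hk1 probe gave -0.16 and 0.23 in BDL kidneys and -0.34 and 0.51 in sham kidneys, with the same order of the 4 arrays and the same difference of -0.05.

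The 250 bases before the Hk2 start on the minus strand, chr6:82774455-82774704 on GRCm38.p6, are shown because Hk2 was the glycolytic gene with the largest difference. They held ACGTG on the opposite strand (written CACGT here) from 226 to 222 and again from 52 to 48 bases before the start. TGACG on the opposite strand from 50 to 46 overlaps the second of these, and GGGCGG stood at 3 places.
Hk2: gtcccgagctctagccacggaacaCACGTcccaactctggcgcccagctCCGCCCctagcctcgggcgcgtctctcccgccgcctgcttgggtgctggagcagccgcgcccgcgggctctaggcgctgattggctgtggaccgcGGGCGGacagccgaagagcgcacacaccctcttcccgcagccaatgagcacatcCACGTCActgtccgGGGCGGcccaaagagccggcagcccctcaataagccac
Among 10 hypoxia-inducible targets, whose response elements carry the ACGTG core, 7 were higher and 3 lower in BDL kidneys, with a median difference of 0.09. In 9 of the 10 the groups overlapped, while 36.6% of all features had no overlap. The other was Egln3, an oxygen sensor induced by hypoxia, with levels of -1.52 and -0.95 in BDL kidneys, against -0.47 and -0.45 in sham kidneys. Both BDL kidneys were lower for Egln3 (-0.77 ± 0.27, limma adjusted p = 0.872), and the difference was -0.48 without BDL replicate 1. The part of hypoxia in the Hk2 value was not tested.

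Of the steps that run only towards pyruvate, Hk1, Pfkl, Pfkm, Pfkp and Pkm differed more between the 2 sham kidneys than between the BDL and sham means, and Hk2 did not. For these 6 genes the median difference was -0.01, with 2 genes higher and 4 lower in BDL kidneys. Sham replicate 2 was the highest array in 5 of these 6 genes (21.4% of all features) and sham replicate 1 the lowest in 4 (27.9% of all features). The median deviation from each gene's mean was -0.01 in both BDL kidneys, while the sham kidneys were at -0.43 (replicate 1) and 0.40 (replicate 2). Pkm, pyruvate kinase, had levels of 4.21 and 4.11 in BDL kidneys, against 3.78 and 4.57 in sham kidneys (-0.02 ± 0.32). Pfkp, the platelet form of phosphofructokinase, had levels of 1.52 and 0.62 in BDL kidneys, against 0.07 and 1.63 in sham kidneys, and its difference of 0.22 ± 0.62 was -0.22 without BDL replicate 1. A second Pfkp probe gave -0.01 ± 0.51. Pfkl, the liver form, was at -0.00 ± 0.33 and Pfkm, the muscle form, at -0.16 ± 0.22, both with overlap. The sums of thick ascending limb and principal cell markers were also lowest or near lowest in sham replicate 1 and highest in sham replicate 2. Their part in the split was not tested, and without sham replicate 2 the median difference of the 6 genes was 0.55.

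The reversible middle steps, which serve both routes, showed a different order of the arrays. Gpi1, Aldoa, Tpi1, Pgk1, Pgam1 and Eno1 were all highest in sham replicate 1, in 6 of 6 genes beside 35.4% of all features. By group means 5 of them were lower in BDL kidneys (51.4% of all features), 3 without overlap (19.3% of all features). Their median difference was -0.17, and it was -0.04 without sham replicate 1 and -0.29 without sham replicate 2. Pgam1, phosphoglycerate mutase, had levels of 6.49 and 6.26 in BDL kidneys, against 6.80 and 6.72 in sham kidneys, and both BDL kidneys were lower (-0.38 ± 0.20, limma adjusted p = 0.872). Pgk1, which makes the first ATP of glycolysis, had levels of 6.70 and 6.95 in BDL kidneys, against 7.22 and 7.00 in sham kidneys. The BDL levels were both under the sham levels (-0.29 ± 0.21). Tpi1, triose phosphate isomerase, had levels of 7.16 and 7.15 in BDL kidneys, against 7.56 and 7.23 in sham kidneys (-0.24 ± 0.21), and a second probe gave -0.19. The BDL values of Tpi1 were under both sham values but close to sham replicate 2. Aldoa, the aldolase of glycolysis in most tissues (-0.04 ± 0.22), and Eno1, an enolase (0.08 ± 0.25), overlapped between the groups. Gpi1, the isomerase of glucose-6-phosphate, also overlapped (-0.10 ± 0.20), and its other probes gave 0.01 and -0.06. For all 6 genes the 95% interval of the difference stayed within 2-fold either way.

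**Figure D3:**
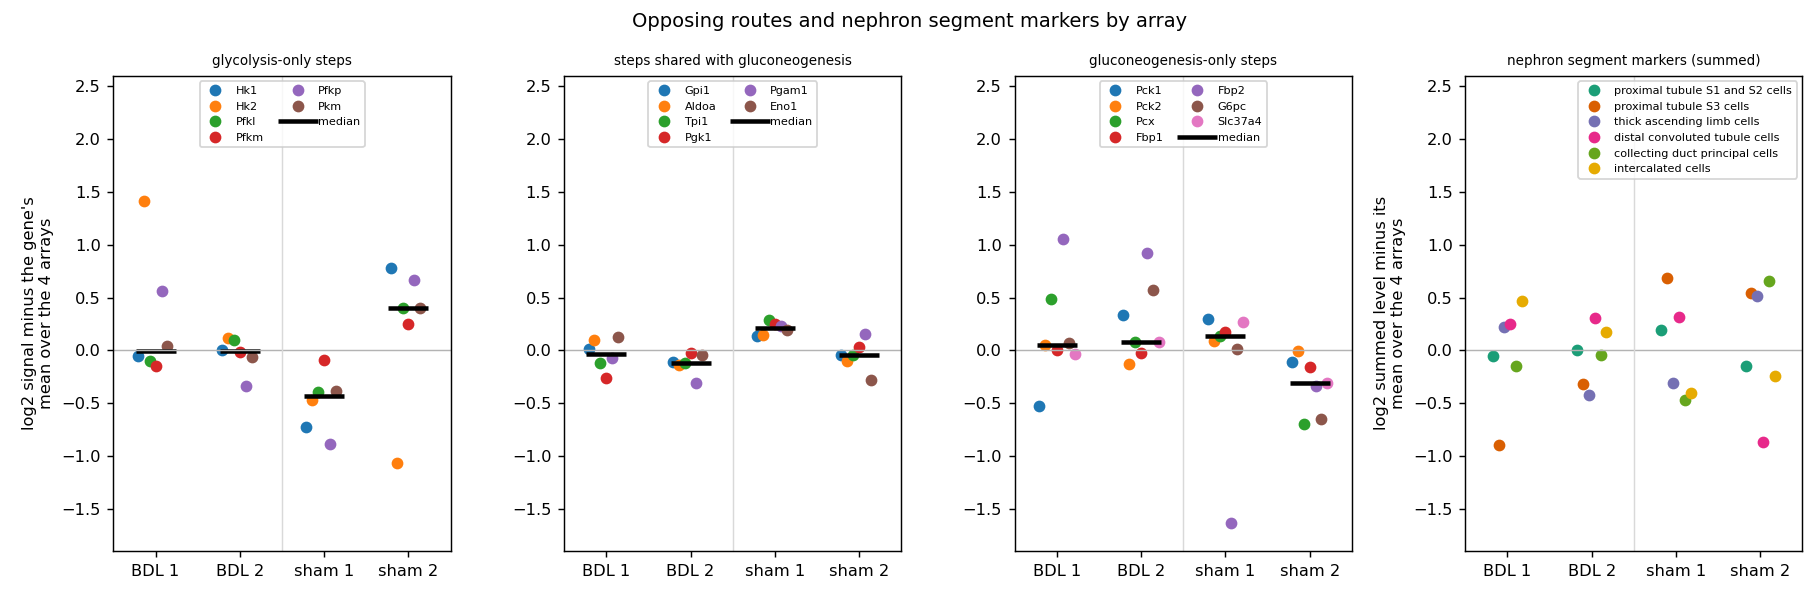
Log2 signals of the steps that run only towards pyruvate, of the steps shared by both routes and of the steps that run only towards glucose are shown as deviations from each gene's mean (vertical axis) on the 4 arrays, with a black bar at the median, beside the summed levels of nephron segment markers. The median of the pyruvate-directed steps lies at -0.01 in both BDL kidneys, at -0.43 in sham 1 and at 0.40 in sham 2, the shared steps are highest in sham replicate 1 (0.21), and the glucose-directed steps are lowest in sham replicate 2 (-0.31).

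Lactate dehydrogenase interconverts pyruvate and lactate, with Ldha the main subunit of glycolytic tissue and Ldhb that of oxidative tissue. By its brightest probe Ldha had levels of 7.99 and 7.79 in BDL kidneys, against 8.04 and 7.89 in sham kidneys (-0.07 ± 0.20), and Ldhb had levels of 8.09 and 7.62 in BDL kidneys, against 8.13 and 8.00 in sham kidneys (-0.21 ± 0.24). The groups overlapped for both. The 3 Ldha probes did not give the same difference. The second gave 0.14 ± 0.21, and the third gave levels of 3.09 and 2.98 in BDL kidneys, against 2.51 and 2.44 in sham kidneys. On the third probe both BDL kidneys were higher, by 0.55 ± 0.19 (limma adjusted p = 0.867), so the direction for Ldha depends on the probe.

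**Figure D4:**
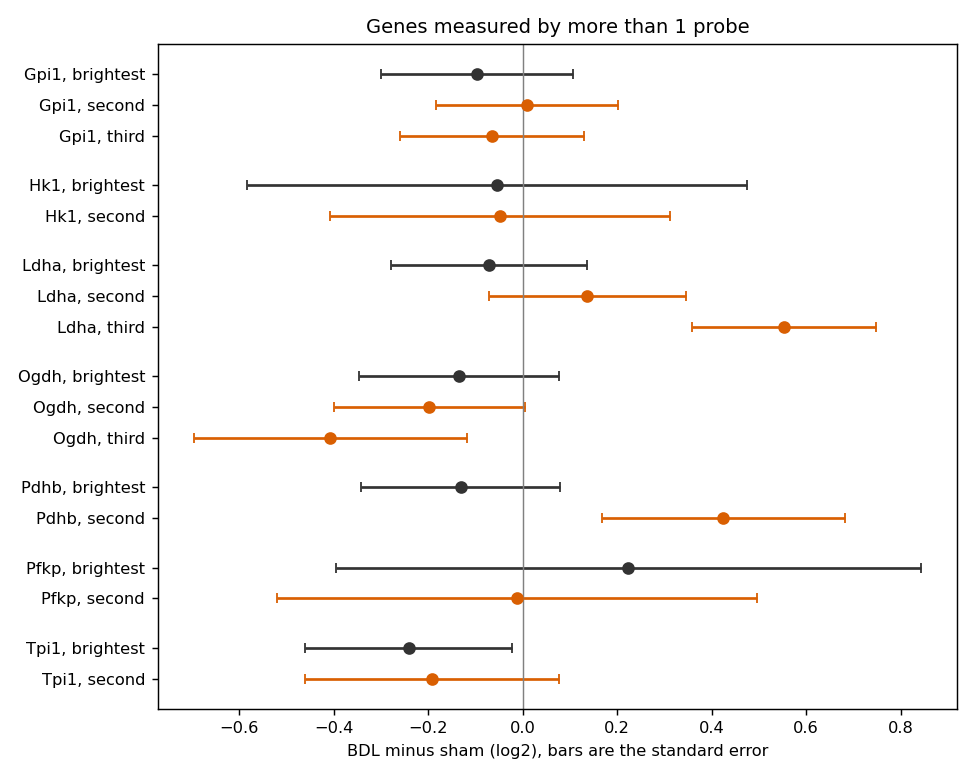
For the 7 genes measured by more than 1 probe, the difference between BDL and sham kidneys (horizontal axis, log2, BDL minus sham) is given per probe with its standard error, the brightest probe in black and the others in orange. The probes of Gpi1, Hk1 and Tpi1 lie close together, while the third probe of Ldha (0.55) and the second probe of Pdhb (0.42) lie right of their genes' brightest probes (-0.07 and -0.13).

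Khk, ketohexokinase, which commits fructose to metabolism in the proximal tubule, had levels of 8.06 and 7.97 in BDL kidneys, against 8.42 and 8.04 in sham kidneys. Sham replicate 1 was the highest and the other 3 kidneys lay close together, giving a difference of -0.22 ± 0.23. The 4 other fructose and polyol enzymes listed were also lower by group means, with a median difference of -0.12. Of these, Tkfc, the triokinase that acts after Khk, had levels of 4.44 and 4.60 in BDL kidneys, against 5.01 and 4.75 in sham kidneys, and both BDL kidneys were lower (-0.36 ± 0.21, or -0.23 without sham replicate 1).

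The entry into the TCA cycle and its enzymes showed small differences. Of 11 genes 3 were higher and 8 lower in BDL kidneys, with a median difference of -0.04, and 10 of the 11 intervals stayed within 2-fold. Cs, citrate synthase, which starts the cycle, had levels of 6.67 and 6.69 in BDL kidneys, against 6.74 and 6.69 in sham kidneys. The BDL values were marginally the lower, and the difference of -0.04 ± 0.19 was 0.01 under quantile normalization. Ogdh, the 2-oxoglutarate dehydrogenase subunit that is a control point of the cycle, had levels of 6.96 and 6.92 in BDL kidneys, against 7.22 and 6.94 in sham kidneys (-0.13 ± 0.21), and its other probes gave -0.20 and -0.41.

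The malate dehydrogenases were both lower in BDL kidneys without overlap. Mdh1, the cytosolic form, which works in the malate-aspartate shuttle and supplies oxaloacetate to Pck1, had levels of 6.85 and 6.67 in BDL kidneys, against 7.42 and 7.01 in sham kidneys. Its difference was -0.45 ± 0.24, a 1.37-fold lower level (limma adjusted p = 0.872), with an interval of -1.08 to 0.18 that was the only 1 of the 11 to pass 2-fold. It was -0.25 without sham replicate 1. Mdh2, the mitochondrial form, had levels of 7.75 and 7.63 in BDL kidneys, against 7.91 and 7.79 in sham kidneys (-0.16 ± 0.19). Pdha1, a subunit of pyruvate dehydrogenase, had levels of 4.01 and 3.91 in BDL kidneys, against 4.14 and 4.12 in sham kidneys, and both BDL kidneys were lower (-0.18 ± 0.19). Its partner Pdhb was at -0.13 ± 0.21 by its brightest probe and at 0.42 ± 0.26 by a second one.

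Suclg2, the GTP-forming subunit of succinyl-CoA synthetase, was above sham in both BDL kidneys, with levels of 4.13 and 4.42 in BDL kidneys, against 4.11 and 4.04 in sham kidneys (0.20 ± 0.21). BDL replicate 1 and sham replicate 1 were nearly equal. Idh2, the mitochondrial NADP-linked isocitrate dehydrogenase, was at 0.23 ± 0.25. Idh3a, a subunit of the NAD-linked isocitrate dehydrogenase (0.06 ± 0.20), Suclg1, the shared subunit of succinyl-CoA synthetase (-0.04 ± 0.21), and Fh1, fumarase (-0.01 ± 0.21), overlapped between the groups. Sham replicate 1 was the highest array in 8 of the 11 genes, beside 35.4% of all features.

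Set side by side, the routes had median differences of -0.18 for the 4 facilitative carriers, -0.03 for the 3 sodium-coupled carriers, -0.06 for the 14 genes of glycolysis and lactate dehydrogenase, 0.05 for the 7 genes of glucose formation and -0.04 for the 11 pyruvate dehydrogenase and TCA genes. No route held a gene past the threshold. BDL values stood above both sham values in 2 of 7 genes of glucose formation and in 1 of 14 of glycolysis, beside 17.4% of all features. The same held for 1 of 11 pyruvate dehydrogenase and TCA genes, 1 of 3 sodium-coupled carriers and none of 4 facilitative carriers. BDL values stood below both sham values in none of the 7 genes of glucose formation and in 3 of the 14 of glycolysis, beside 19.3% of all features. They did so in 4 of the 11 pyruvate dehydrogenase and TCA genes, 1 of the 3 sodium-coupled carriers and 1 of the 4 facilitative carriers. The routes' medians were not tested against each other. The route medians moved with single arrays. Without sham replicate 1 the median of glucose formation was 0.34 and that of glycolysis -0.16, while without sham replicate 2 they were -0.12 and -0.15. Without sham replicate 2 the medians of all 40 genes and of the TCA genes were both -0.15 and that of the facilitative carriers was -0.05.

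Other genes of glucose and pyruvate metabolism were taken from 8 further lists. None passed the threshold. Pfkfb3, which makes the activator of phosphofructokinase, was lower, with levels of 0.79 and 0.96 in BDL kidneys, against 1.66 and 1.59 in sham kidneys (-0.75 ± 0.19, limma adjusted p = 0.793). The 17 other glycolytic enzymes had 8 genes higher and 9 lower and a median difference of -0.05, and Gapdh, often used as a reference gene, was at -0.07 ± 0.22. Pgam2, the muscle mutase, stood higher without overlap (0.65 ± 0.34, or 0.22 without sham replicate 2), with the skeletal muscle markers as given for Fbp2, and so did Bpgm, the red cell mutase (0.51 ± 0.30). All 5 red blood cell markers were higher by group means, with sums of 1437 and 795 in BDL kidneys, against 733 and 584 in sham kidneys, and Bpgm was at 0.17 without BDL replicate 1. The parts of red blood cells in the Bpgm value and of muscle in the Pgam2 value were not tested. G6pc3, the broadly expressed glucose-6-phosphatase, was lower without overlap (-0.30 ± 0.19), against the order seen for G6pc.

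Of 11 other hexose carriers 7 were measured, 5 higher and 2 lower, with a median difference of 0.21. Slc2a3, which encodes the high-affinity carrier GLUT3, had levels of -2.32 and -3.25 in BDL kidneys, against -4.21 and -3.80 in sham kidneys. As for Hk2, the sham values lay near the lowest signals well above background. The groups did not overlap, and BDL kidneys were higher (1.22 ± 0.38, limma adjusted p = 0.861), by 0.75 without BDL replicate 1, which was the highest for Slc2a3 as for Hk2, and by 0.53 under the normexp background. Slc2a8, an intracellular carrier (0.51 ± 0.26, or 0.25 without sham replicate 1), and Slc5a11, a sodium-coupled inositol carrier (0.35 ± 0.24, or 0.18 without BDL replicate 1), also stood higher without overlap.

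The carriers of lactate stood on both sides. Slc5a12, the low-affinity sodium-lactate carrier of the early proximal tubule, had levels of 6.42 and 6.27 in BDL kidneys, against 5.56 and 5.64 in sham kidneys. Both BDL kidneys were higher (0.75 ± 0.19, limma adjusted p = 0.801), beside sums of the 8 proximal tubule S1 and S2 markers, Slc5a12 among them, of 956 and 995 in BDL kidneys and 1137 and 895 in sham kidneys, which overlapped. Without sham replicate 2 the other Slc5a12 probe was the brighter one and gave 0.41. Slc5a8, the high-affinity carrier of the later proximal tubule, had levels of 3.73 and 3.83 in BDL kidneys, against 4.58 and 4.04 in sham kidneys, and both BDL kidneys were lower (-0.53 ± 0.26, or -0.26 without sham replicate 1). Slc16a3, which encodes the lactate exporter MCT4 of glycolytic cells, had levels of -0.59 and -1.28 in BDL kidneys, against -1.84 and -1.60 in sham kidneys (0.78 ± 0.30), and was at 0.44 without BDL replicate 1. Slc16a1, which encodes the broadly expressed MCT1, was at -0.09 ± 0.36.

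Among the kinases and phosphatases that set pyruvate dehydrogenase activity, Pdk4 and Pdk3 stood on opposite sides. Pdk4, a kinase that shuts the complex off in fasting, had levels of 1.92 and 0.54 in BDL kidneys, against -0.33 and 0.42 in sham kidneys. The margin between BDL replicate 2 and sham replicate 2 was small, and the difference of 1.18 ± 0.55 was 0.49 without BDL replicate 1. Pdk3 was lower without overlap (-0.66 ± 0.24, limma adjusted p = 0.872), as were the phosphatase gene Pdp1 (-0.61 ± 0.30, or -0.25 without sham replicate 2) and Dlat, the acetyltransferase core of the complex (-0.27 ± 0.21). The 9 genes of this list had a median difference of -0.10. The 15 other TCA and citrate enzymes resembled the 11 above in their spread, with 14 of 15 intervals within 2-fold and a median of -0.04. Of these, Sdha, a succinate dehydrogenase subunit, stood higher (0.25 ± 0.21) and Me1, cytosolic malic enzyme, lower (-0.42 ± 0.25, or -0.18 without sham replicate 1) without overlap.

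The 14 pathway regulators had a median difference of 0.04, with 8 higher and 6 lower. Insr, the insulin receptor (0.41 ± 0.20), and Crtc2, a cofactor of the cAMP response (0.20 ± 0.20), stood higher without overlap. Nr3c1, the glucocorticoid receptor (-0.20 ± 0.19), stood lower without overlap.

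**Figure D5:**
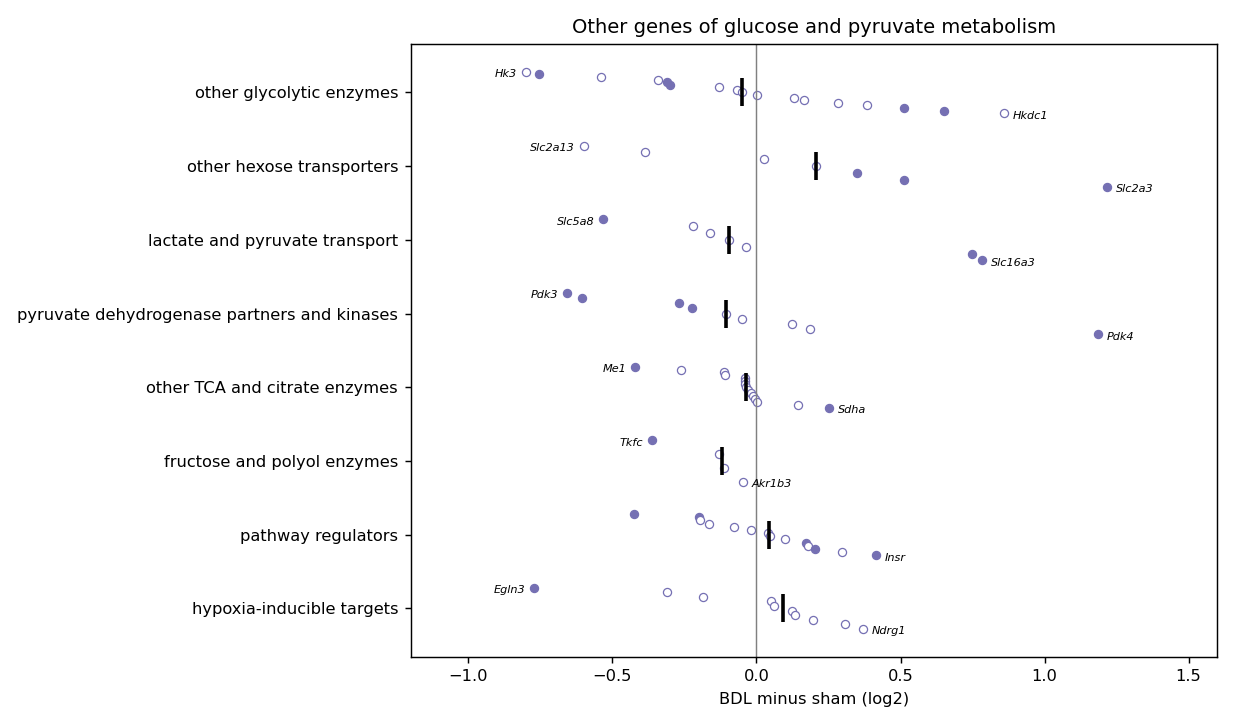
Differences between BDL and sham kidneys (horizontal axis, log2, BDL minus sham) are shown for the measured genes of the 8 further lists, 1 point per gene, filled where the groups did not overlap, with a black bar at each list's median and outermost genes named. The medians run from -0.12 (fructose and polyol enzymes) to 0.21 (other hexose transporters), and Slc2a3 (1.22) and Pdk4 (1.18) are the points beyond 1.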

How the data were processed

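The submitters' processing notes name Agilent Feature Extraction 11.0.1.1 as the reader of the spots. The deposited processed signal is a background-subtracted intensity on a linear scale, per the file headers, and carries no scaling from array to array. The authors' deposited value table holds the same intensities divided by 1 constant per array (739 and 939.8 for BDL, 709 and 844 for sham), with column medians of 0.329 and 0.330 for BDL and 0.328 and 0.339 for sham. Its scale is linear, it is not centred, and what each constant was set on stays unknown.

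Control and outlier spots were left out, spots of a probe were averaged as log2 values, and each array's 75th percentile (741 and 945 signal units for BDL, 712 and 849 for sham) was subtracted. Accessions named 27223 of 55668 probes through a RefSeq table of GRCm38.p6, used for names and promoter sequences, because the array grid lists mm9. Probes well above background on both arrays of a group were retained, and the brightest of a gene was used, giving 24044 features. The test was limma 3.58.1 (R 4.3.3, lmFit then eBayes, both directions) with Benjamini-Hochberg adjustment and a threshold of 0.05, a fit tested on simulated data. The number of arrays limits the precision. A slide or scan block was not possible, since the slide and the scan time were shared by all arrays.

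The genes and lists were chosen with earlier results of these data known. Named are all 40 genes, with per-array values for those without overlap and the route-defining ones, and of each further list up to 4 genes with the smallest p and no overlap, plus Gapdh, Slc16a1, Slc5a8 and Pdk4, except that 2 genes this rule names are not reported here. Of 11 other hexose carriers, Slc2a10, Slc2a12, Slc5a4a and Slc5a4b were not retained or not matched. Alternatives covered background correction (normexp, offset 50, on the median spot signal, since the files hold no mean signal), scaling, the value table, the filter on dim probes, the probe used, array weights, the replicate number as a block and leaving out each array. Probes of related genes can share targets.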

Additional observations from a re-analysis of the deposited data

How the results depend on the processing

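No feature and none of the 40 genes passed the threshold under any of the 14 alternatives, and the smallest adjusted p of a gene was 0.253, without sham replicate 2. Of the 40 genes 16 kept the sign of their difference under every alternative that gave them a value. Among them, Fbp2, Hk2, G6pc, Slc5a10, Slc2a5, Pgam1 and Mdh1 kept it under all 14. In these named genes the groups did not overlap, so leaving out an array could not change the sign. Array weights, the replicate block, the dim-probe filters and the probe settings left their differences as they were. The authors' table barely moved them. The other 24 genes changed sign at least once. The cause of each change was not tested, except where a change of probe is named.

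Differences (BDL minus sham, log2) that changed sign under the normexp background were Pfkl 0.035, Eno1 -0.0063, Pkm 0.034, Fbp1 0.012 and Fh1 0.054. Under quantile normalization they were Slc5a2 0.027, Aldoa 0.075, Ldha 0.0054, Fbp1 0.17, Cs 0.012, Suclg1 0.023, Fh1 0.027 and Gapdh 0.089, and under scaling to the array median Pfkl 0.022, Pkm 0.0061, Fbp1 0.0035 and Fh1 0.0099. In the authors' deposited table Pfkp was at -0.013, a change to its second, dimmer probe, which was at -0.012 in the fit per probe. With the mean over a gene's probes they were Ldha 0.21 and Pdhb 0.15, where the added probes made the change. The median of the sodium-coupled carriers was -0.36 in the authors' table, whose values did not include Slc5a1.

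Over the fits that each left out 1 array, in which the lone array of a group was assumed to vary like the others, the median difference ranged from -0.16 to -0.0064 for glycolysis and lactate dehydrogenase, -0.19 to 0.13 for sodium-coupled hexose transport, -0.12 to 0.34 for gluconeogenesis and glucose release, -0.15 to -0.0022 for all 40 genes, -0.15 to 0.0074 for pyruvate dehydrogenase and TCA cycle and -0.41 to 0.55 for the pyruvate-directed steps.

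The lowest and highest differences over the same fits, for genes whose sign changed, were Slc2a4 -0.22 to 0.26, Pfkl -0.40 to 0.40, Pfkp -0.55 to 1.00, Eno1 -0.15 to 0.32, Pck1 -0.62 to 0.24, Idh2 -0.0047 to 0.47, Suclg1 -0.16 to 0.083, Slc16a1 -0.54 to 0.35, Aldoa -0.16 to 0.084, Pkm -0.41 to 0.38, Ldha -0.17 to 0.028, Ldhb -0.44 to 0.025, Pck2 -0.17 to 0.017, Slc37a4 -0.24 to 0.34, Idh3a -0.037 to 0.15, Fh1 -0.14 to 0.11, Gapdh -0.23 to 0.096, Slc2a2 -0.26 to 0.16, Slc5a2 -0.19 to 0.13, Fbp1 -0.19 to 0.15, Pdhb -0.26 to 0.0021, Ogdh -0.28 to 0.0074, Slc2a1 -0.79 to 0.16, Hk1 -0.81 to 0.70 and Pfkm -0.33 to 0.0083.

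As a replicate block, the replicate number left 0 features past the threshold, with a smallest adjusted p of 0.314, and 1448 features at an unadjusted p under 0.05 against 1352 without it. The numbers only name the samples: the correlation over features of replicate 1 minus replicate 2 between BDL and sham was 0.06. The number of arrays limits every value here.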
